A study of Sus scrofa with 2 samples.

Results

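Matrix metalloproteases (MMPs) are zinc-dependent enzymes that cut collagen and other proteins of the extracellular matrix, and tissue inhibitors of metalloproteases (TIMPs) bind and block them. The 5 genes described here are the gelatinases MMP2 and MMP9, the membrane-anchored MMP14, the secreted protease ADAMTS18 and the inhibitor TIMP2. They were taken by name from the deposited mRNA table, where they had 9 of 2645 listed transcripts and made up 5 of 2220 genes. Backfat, the subcutaneous fat of the back, came from male Huainan pigs aged 300 days on a standard diet, 3 left intact and 3 castrated, that is, without the testes as the main source of androgens. Each group was deposited as 1 sample with 1 value per transcript, so no spread between pigs could be computed and no test between the groups was made.

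In adipose tissue the matrix around each fat cell has to be cut and rebuilt as the cell enlarges. MMP14 sits on the cell surface and cuts fibrillar collagen, and in mice it is needed for fat cells to grow within a collagen network. TIMP2 has a double role: it inhibits MMPs, and at low amounts it tethers the inactive form of MMP2 to MMP14 so that MMP14 can activate it. MMP9 is a second gelatinase, made in quantity by neutrophils and macrophages.

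The table is in FPKM, fragments per kilobase of transcript scaled to the number of mapped fragments, a unit in which levels of different genes can be set side by side. Every transcript in it passed the authors' own test (q-value under 0.05), and the smallest absolute log2 fold change listed was 1.15. A family member without a line is therefore not known to be unchanged. The same holds for further transcripts of a listed gene, so sums and shares per gene cover listed transcripts only. The sequencing depth behind the FPKM values is unknown. The q-values quoted below are the authors' own, and with 1 value per group it is not known whether they cover the spread between pigs. Since being listed required a q-value under 0.05, they are no separate support for a difference. Below, a gene "rose" or "fell" when its log2(FPKM + 1) differed at least 2-fold between castrated and intact backfat and the higher group had at least 1 FPKM. Because the table holds called transcripts, a gene fails this rule only at low FPKM or where its transcripts go opposite ways. Of all listed genes 80.0% pass it, 40.8% upwards and 39.2% downwards. All 5 genes passed, 2 upwards and 3 downwards, and against that background their passing is not a result about them; what follows describes their levels and the sizes of their differences.

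The 5 genes went in opposite directions. MMP2, MMP14 and TIMP2, the 3 genes of the MMP2-activating complex, were among the more abundant listed genes in intact backfat, and all 3 fell in castrated backfat. MMP9, which ranked 1995th of the 2220 listed genes by level in intact backfat, and ADAMTS18, which ranked 1739th, rose. In intact backfat the order of summed levels was MMP2, TIMP2, MMP14, ADAMTS18 and MMP9, and in castrated backfat TIMP2 stood above MMP2 with the rest in the same order. With 1 value per group, it cannot be said which neighbours in that order differ beyond their spread.

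**Figure D1:**
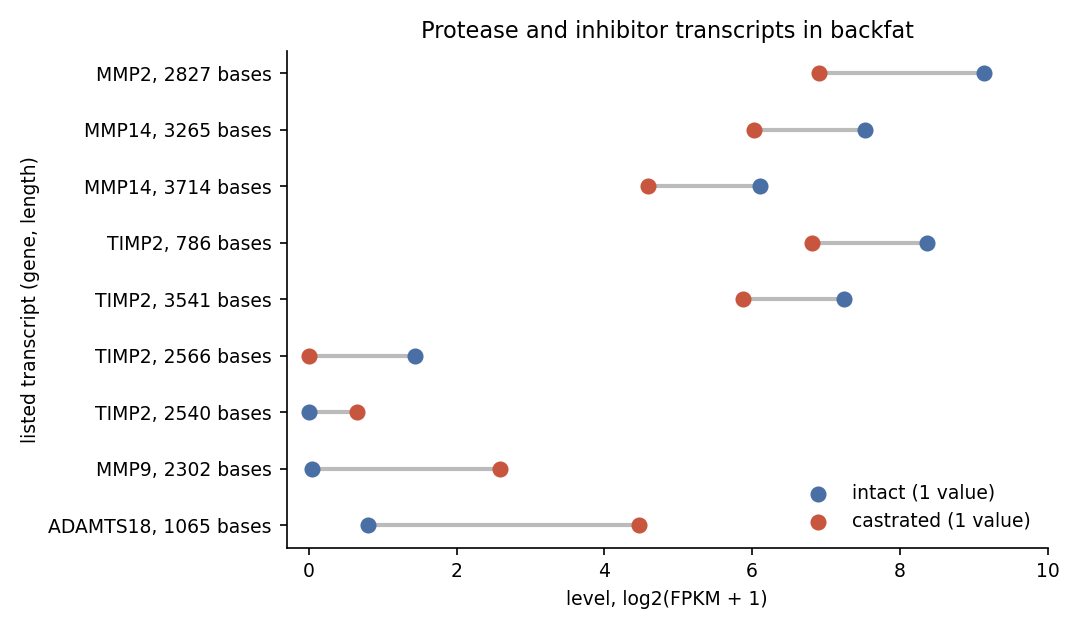
Level of each of the 9 listed transcripts on the log2(FPKM + 1) scale in intact (blue) and castrated (red) backfat, 1 value per group, with the transcript length beside the gene. The MMP2 and MMP14 transcripts and 3 of the 4 TIMP2 transcripts are lower in castrated backfat, and the TIMP2 transcript of 2540 bases, MMP9 and ADAMTS18 are higher.

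MMP2 (gene ID 397391), which encodes gelatinase A, a protease of denatured collagen and of basement membrane collagen, stood at 119 FPKM in castrated and 562 FPKM in intact backfat. This is a 4.71-fold lower level in castrated backfat, or a difference of -2.23 in log2(FPKM + 1). MMP2 was the 10th most abundant listed gene in intact backfat and the 119th in castrated backfat. Of the listed genes that were lower in castrated backfat, 10.9% had a difference at least as large. The single listed transcript, of 2827 bases, had a q-value of 0.00247 in the authors' deposited table.

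MMP14 (gene ID 397471), the membrane-type protease that activates MMP2, had a summed level of 87.1 FPKM in castrated and 252 FPKM in intact backfat, 2.89-fold lower. Its 2 listed transcripts fell by nearly the same factor, 2.87-fold and 2.93-fold. The transcript of 3265 bases stood at 64.0 against 184 FPKM, and that of 3714 bases at 23.2 against 67.9 FPKM. The shorter one made up 73.4% of the summed MMP14 level in castrated and 73.0% in intact backfat. The mix of the listed transcripts was thus nearly alike in the groups, and transcripts without a line are not part of it. The authors' deposited table gave a q-value of 0.0199 to the shorter and of 0.00687 to the longer transcript.

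TIMP2 (gene ID 396988), the inhibitor, had a summed level of 169 FPKM in castrated and 480 FPKM in intact backfat, 2.83-fold lower. Of its 4 listed transcripts, 2 carried nearly all of this level. The transcript of 786 bases stood at 111 FPKM in castrated and 328 FPKM in intact backfat, and the transcript of 3541 bases at 57.5 against 150 FPKM. Both fell, by 2.95-fold and 2.60-fold. The remaining pair were near the floor and pointed in opposite directions: the transcript of 2566 bases was listed at 0 in castrated and at 1.71 FPKM in intact backfat, and that of 2540 bases at 0.569 FPKM in castrated and at 0 in intact backfat. The last was the only one of the 9 transcripts that did not pass the size rule. Of the 9 transcripts 2 passed upwards and 6 downwards, where 42.6% and 39.9% of all listed transcripts did, 82.5% in all.

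The short TIMP2 transcript took 65.7% of the summed TIMP2 FPKM in castrated and 68.5% in intact backfat. FPKM divides by length, so the share of sequenced fragments is different. Multiplied back by length, the transcript of 3541 bases accounted for 69.6% of the TIMP2 amount in castrated and 66.9% in intact backfat. How fragments that fit several overlapping transcripts are split between them is an estimate, and the sum per gene depends less on it than any single transcript does. The 4 TIMP2 transcripts had q-values between 0.00533 and 0.0325 in the authors' deposited table.

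Set against TIMP2, MMP14 stood at nearly the same level in both groups and MMP2 did not. The ratio of summed MMP14 to summed TIMP2 FPKM was 0.514 in castrated and 0.525 in intact backfat. The ratio of MMP2 to TIMP2 was 0.704 in castrated and 1.17 in intact backfat, 1.66-fold lower in castrated backfat. MMP2 stood above summed TIMP2 in intact backfat and below it in castrated backfat at the RNA level. That crossing depends on the TIMP2 sum, and so on how fragments were split between its transcripts. MMP2, at 119 FPKM in castrated and 562 FPKM in intact backfat, stood above each single TIMP2 transcript in both groups. The most abundant of these, of 786 bases, had 111 and 328 FPKM. No error can be given for these ratios, since each comes from 1 value per group.

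**Figure D2:**
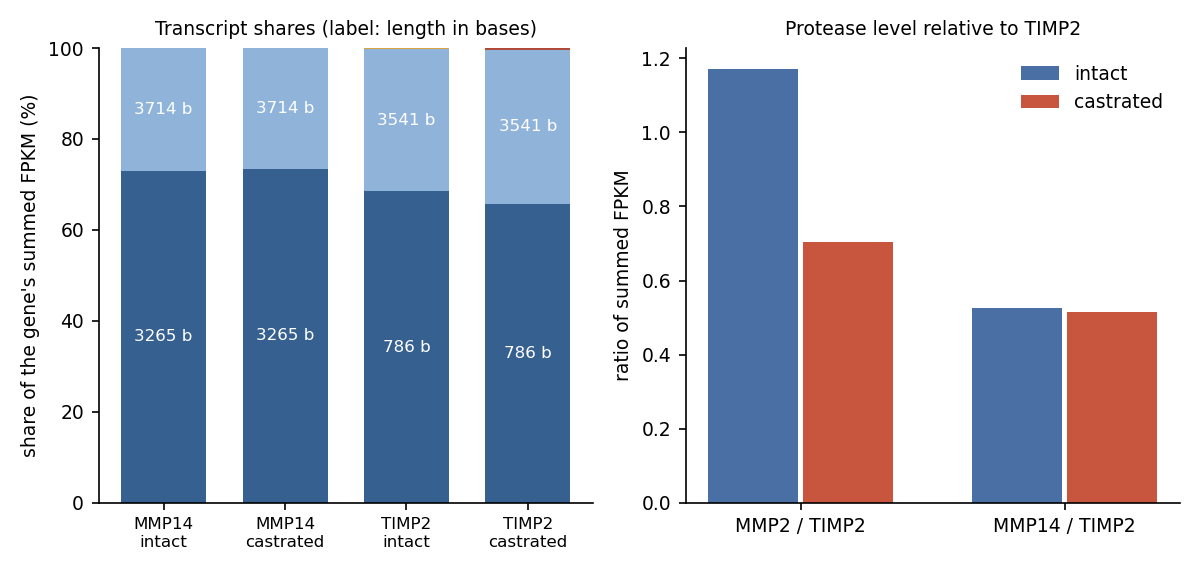
Left, share of each listed transcript in the summed FPKM of MMP14 and TIMP2, per group, with transcript lengths in bases; shares under 10% carry no label. Right, ratio of summed MMP2 and MMP14 FPKM to summed TIMP2 FPKM: MMP14 over TIMP2 is 0.525 in intact and 0.514 in castrated backfat, while MMP2 over TIMP2 goes from 1.17 to 0.704.

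MMP9 (gene ID 654325), which encodes gelatinase B, stood at 4.996 FPKM in castrated and 0.0281 FPKM in intact backfat. The intact value is one of the lowest in the table: only 5 of 2327 transcripts above 0 in intact backfat had a lower FPKM. The plain ratio of 178-fold therefore rests on a denominator near 0. On the log2(FPKM + 1) scale the difference was 2.54, which corresponds to 5.83-fold, and with a pseudocount of 5 FPKM it was 0.99 and no longer passed the rule. In castrated backfat MMP9 was still low next to the other gelatinase, with 0.0419 of the MMP2 level. The authors' deposited table gave its transcript of 2302 bases a q-value of 4.06e-05.

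ADAMTS18 (gene ID 102167408), a secreted metalloprotease with thrombospondin repeats, had the largest rise of the 5 genes on the log2(FPKM + 1) scale. With a pseudocount of 0.1 FPKM the order turned, with a log2 difference of 5.31 for MMP9 and 4.65 for ADAMTS18, as it did in the plain ratio of FPKM. It stood at 21.1 FPKM in castrated and 0.745 FPKM in intact backfat, 28.3-fold higher, with a log2(FPKM + 1) difference of 3.66. Of all 1129 listed genes that were higher in castrated backfat it ranked 13th, and MMP9 ranked 62nd. Its level in castrated backfat lay above 80.1% of the transcripts above 0 in that group, and its level in intact backfat above 14.8%. The one listed transcript was 1065 bases long, and the authors' deposited table gave it a q-value of 3.55e-11. The deposited annotation gave this transcript no domain or pathway term. Whether it covers the whole gene was not examined, so its FPKM may stand for a part of the gene.

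**Figure D3:**
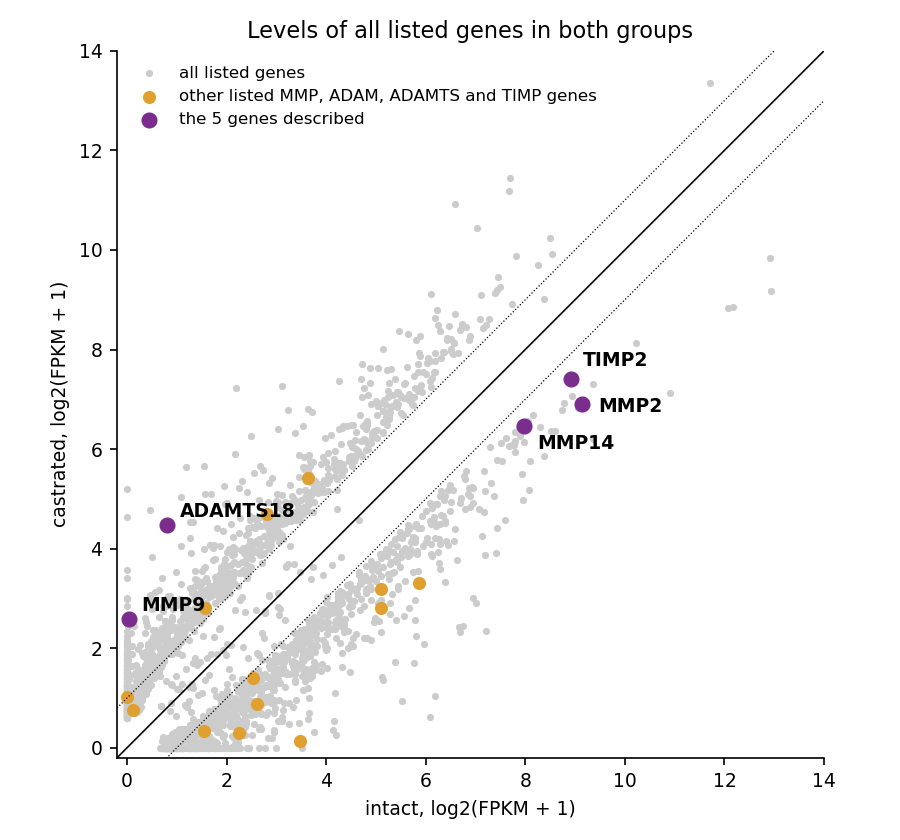
Level of all 2220 listed genes in intact (x axis) and castrated (y axis) backfat, both as log2(FPKM + 1), with the 5 genes in purple and other listed MMP, ADAM, ADAMTS and TIMP genes in orange. The solid line marks equal levels and the dotted lines a 2-fold difference; MMP2, MMP14 and TIMP2 lie in the abundant lower arm, MMP9 and ADAMTS18 at the left edge of the upper arm.

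The genes whose pair of levels lay nearest to each of the 5, by distance over the 2 group values on the log2(FPKM + 1) scale, were the following. None of them is an MMP, ADAMTS or TIMP gene. For MMP2 they were RCN1, at 113 against 530 FPKM, and RBM3, at 132 against 491 FPKM. For MMP14 they were FKBP9, at 84.3 against 233 FPKM, and CTSV, at 94.1 against 265 FPKM. RBM3 was also nearest to TIMP2, followed by the cathepsin K gene CTSK at 158 against 660 FPKM. MMP9 lay nearest to PNPLA8 and TMEM33, both listed at 0 in intact backfat and at 5.04 and 5.10 FPKM in castrated backfat. ADAMTS18 lay nearest to GRAMD2A, at 22.2 against 1.40 FPKM. Distances of the genes named ranged from 0.0416 to 0.470, and 2 values per gene are too few to call any of these patterns shared.

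The rest of the MMP family was also divided. A list of 21 other MMP genes had 6 listed members, of which 4 fell and 2 rose, beside 39.2% and 40.8% of all listed genes. The median log2(FPKM + 1) difference of the 6 was -2.11, against 0.34 over all listed genes. MMP3, the broad-acting stromelysin, stood at 0.106 FPKM in castrated and 10.1 FPKM in intact backfat. MMP27, a stromelysin-like member, fell from 57.0 to 8.86 FPKM, and MMP23B, a membrane-bound member, from 33.4 to 6.05 FPKM. MMP8, the collagenase of neutrophil granules, fell from 3.74 to 0.233 FPKM. The membrane-type MMP15 rose from 1.98 to 6.01 FPKM, and MMP19 stood at 1.04 FPKM in castrated backfat and was listed at 0 in intact backfat. Neither of these rises passed with a pseudocount of 5 FPKM or after the median centring described at the end.

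Over all 9 listed MMP genes the summed level was 234 FPKM in castrated and 920 FPKM in intact backfat, 3.93-fold lower. MMP2 and MMP14 together made up 88.3% of this sum in castrated and 88.4% in intact backfat. The 3 MMP genes that rose, MMP9 among them, went from 0.218% of the sum in intact to 5.15% in castrated backfat. The 6 that fell made up 99.8% of the sum in intact and 94.8% in castrated backfat.

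**Figure D4:**
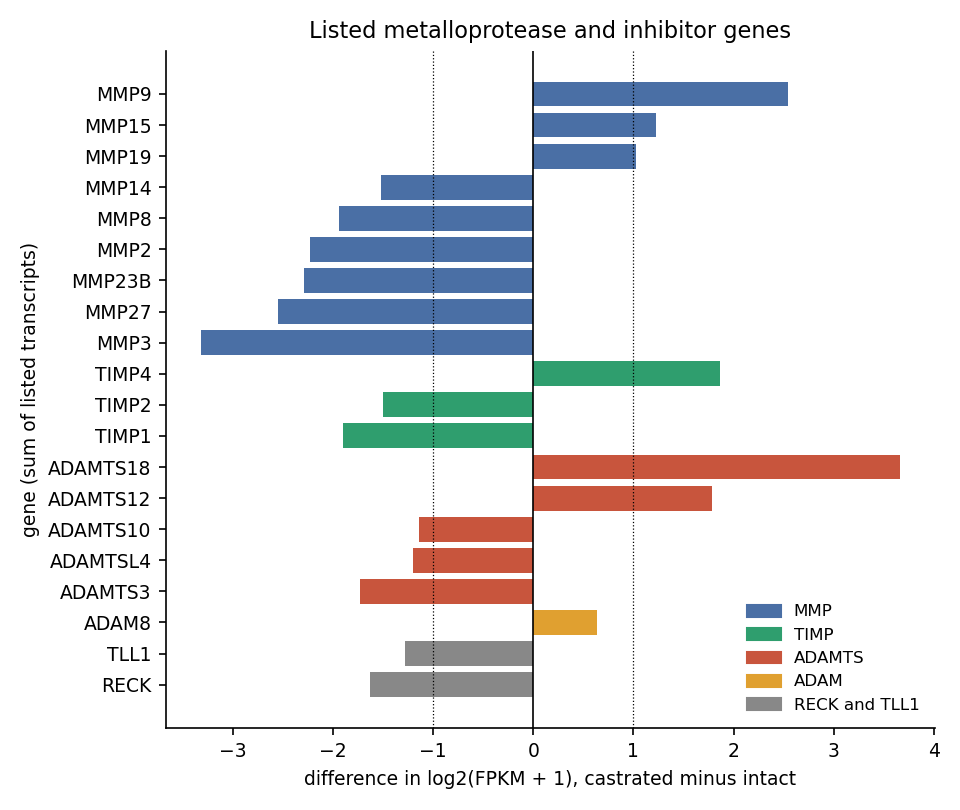
Difference in log2(FPKM + 1), castrated minus intact, for every listed MMP, TIMP, ADAMTS and ADAM gene and for RECK and TLL1; dotted lines mark a 2-fold difference. Of the MMP genes 6 bars point down and 3 up, of the TIMP genes 2 down and 1 up, and ADAMTS18 has the longest bar upwards.

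On the list of ADAM, ADAMTS and astacin genes other than ADAMTS18, 6 of 39 were listed. Where 39.2% of all listed genes fell, 4 of these 6 did, 1 rose and 1 did not pass. Their median log2 difference was -1.17, and none passed downwards with a pseudocount of 5 FPKM, since these genes are low. ADAMTS12 rose as ADAMTS18 did, from 11.4 to 42.0 FPKM, summed from transcripts of different gene IDs at 18.9 against 5.28 and 23.1 against 6.17 FPKM. ADAMTS3, which trims procollagen, fell from 5.07 to 0.830 FPKM, and ADAMTS10, a protease of microfibrils, from 4.81 to 1.64 FPKM. ADAMTSL4, an ADAMTS-like gene whose product has no protease domain, fell from 1.91 to 0.267 FPKM, and TLL1, a tolloid-like procollagen protease, from 12.2 to 4.45 FPKM. ADAM8 stayed below 1 FPKM in both groups, at 0.696 against 0.0866 FPKM.

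The list of other inhibitors and related proteins mostly fell, as TIMP2 did. Of its 14 genes 7 were listed, of which 6 fell and 1 rose, beside 39.2% and 40.8% of all listed genes. The median log2 difference of the 7 was -1.69. TIMP1, an inhibitor of most secreted MMPs and a partner of pro-MMP9, fell from 33.3 to 8.16 FPKM. TIMP4, which the table spells TIMP-4, rose from 6.04 to 24.8 FPKM. TIMP4 went from 1.16% of the summed level of the 3 listed TIMP genes in intact to 12.3% in castrated backfat, while TIMP2 went from 92.4% to 83.7%. A2M, the broad protease trap alpha-2-macroglobulin, fell from 42.3 to 8.18 FPKM, and SERPINF1 from 1190 to 281 FPKM. SERPINF1, a serpin that does not itself block proteases, and PCOLCE2, an enhancer of procollagen processing that fell from 72.7 to 28.6 FPKM, are counted among the 6 although neither is an inhibitor in the strict sense. RECK, a membrane-anchored inhibitor of MMP2, MMP9 and MMP14, fell from 28.5 to 8.55 FPKM.

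Genes that activate these proteases, bind them or clear their products fell without exception among those listed. Of 20 on the list 8 were listed and all 8 fell, where 39.2% of all listed genes did. The median log2 difference of the 8 was -1.38. With a pseudocount of 5 FPKM 4 of the 8 passed. CLDN11, a claudin, went from 106 to 4.42 FPKM, THBS1, the thrombospondin that binds MMP2 and MMP9, from 331 to 57.4 FPKM, and MRC2, an endocytic receptor for collagen fragments, from 63.6 to 16.5 FPKM. Of the plasminogen activators, PLAT fell from 15.6 to 5.52 FPKM, and PLAU was listed at 0 in castrated and at 1.53 FPKM in intact backfat. Of 26 transcriptional and cytokine regulators of MMP genes only 3 were listed. FOSL2, a subunit of the AP-1 factor, fell from 42.2 to 15.7 FPKM and TGFB3 from 4.75 to 1.85 FPKM, while ETV4, at 0.708 FPKM in intact backfat and listed at 0 in castrated backfat, did not pass.

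Most listed genes of the matrix proteins that such enzymes cut fell as well, and COL1A1 fell further than MMP2, MMP14 and TIMP2 did. Of 43 substrate genes on the list 17 were listed, 13 fell and 4 rose, beside 39.2% and 40.8% of all listed genes. The median log2 difference of the 17 was -1.83. COL1A1, a chain of type I collagen, stood at 581 against 7819 FPKM, COL6A3 at 13.7 against 145 FPKM and the cartilage matrix gene COMP at 0.531 against 66.6 FPKM. SPP1, which encodes osteopontin, COL15A1 and NID2, a basement membrane nidogen, were the largest rises, with NID2 at 90.8 against 27.1 FPKM and COL15A1, summed over 3 gene IDs, at 563 against 167 FPKM. Relative to COL1A1, listed with a single transcript of 1480 bases, MMP2 and MMP14 were more abundant in castrated backfat. Whether that transcript covers the whole gene was not examined. COL1A2, another chain of type I collagen, was listed at only 0.647 against 6.12 FPKM, so ratios to COL1A1 may not stand for type I collagen. The ratio of MMP2 to COL1A1 was 0.205 in castrated and 0.0718 in intact backfat. The ratio of MMP14 to COL1A1 was 0.150 against 0.0322, and that of TIMP2 to COL1A1 0.292 against 0.0614. The direction of such ratios depends on the substrate gene. COL6A3, COMP and DCN, the last at 911 against 7677 FPKM, also fell further than MMP2, MMP14 and TIMP2 did. COL14A1, at 80.5 against 220 FPKM, fell less than each of them. Relative to the 4 substrate genes that rose, MMP2, MMP14 and TIMP2 were less abundant in castrated backfat.

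Markers of cell types that make these proteases differed between the groups as well. In bulk tissue, fewer cells of a type and less RNA per cell cannot be told apart. All 5 listed of 12 fibroblast and progenitor markers fell, as MMP2, MMP14 and TIMP2 did, where 39.2% of all listed genes fell. The summed level of these markers was 1194 FPKM in castrated and 8647 FPKM in intact backfat. They included DCN at 911 against 7677 FPKM, MFAP5 at 81.1 against 365 FPKM, PDGFRA, summed over 2 gene IDs, at 67.1 against 213 FPKM and COL14A1 at 80.5 against 220 FPKM. DCN and COL14A1 also belong to the substrate list. Their part in the fall of the 3 genes was not tested.

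All 3 listed of 15 macrophage markers rose, as MMP9 did, where 40.8% of all listed genes rose. The summed level of these markers went from 13.9 to 210 FPKM. MSR1, a scavenger receptor, stood at 20.3 against 2.49 FPKM, LYZ at 36.4 against 3.75 FPKM and SPP1, also a substrate, at 154 against 7.64 FPKM. Of 12 neutrophil markers 2 were listed, with a summed 1.19 against 3.97 FPKM, namely CSF3R at 0.958 against 0.233 FPKM and MMP8, which fell. Lymphocyte markers (3 listed of 11) rose from a summed 4.39 to 16.3 FPKM, with KLRK1 going from 2.16 to 7.96 and CD2 from 1.78 to 6.01 FPKM, and none passed with a pseudocount of 5 FPKM. Erythroid markers (3 listed of 8) rose from a summed 132 to 1394 FPKM, with HBB, a globin gene, going from 130 to 1383 and ALAS2 from 1.08 to 6.99 FPKM; 1 of the 3 passed with a pseudocount of 5 FPKM. No listed marker of these lists was at 0 in either group. The defining markers CD68, CD163 and CSF1R of macrophages and S100A8, S100A9 and MPO of neutrophils had no listed transcript, so their levels are not known. For the listed markers, their part in the rise of MMP9 and ADAMTS18 was not tested.

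The tissue's own markers were present in both groups. Of 12 mature adipocyte markers 7 were listed and all 7 rose, where 40.8% of all listed genes did. After median centring 3 of the 7 rose, where 19.6% of all listed genes did. The summed level of the 7 went from 769 to 2245 FPKM, with CIDEC at 828 against 306 FPKM and PLIN1 at 392 against 153 FPKM. Of 10 smooth muscle and pericyte markers 4 were listed, 3 fell and 1 rose, with RGS5 at 130 against 46.5 FPKM and MYH11 at 10.8 against 32.0 FPKM. The single listed endothelial marker, EGFL7, fell from 13.1 to 4.48 FPKM, and the single listed skeletal muscle marker, TCAP, from 4.76 to 1.32 FPKM. Of the 2 listed skin markers PPL fell from 26.1 to 3.60 FPKM and EVPL stood at 1.47 against 0.171 FPKM.

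**Figure D5:**
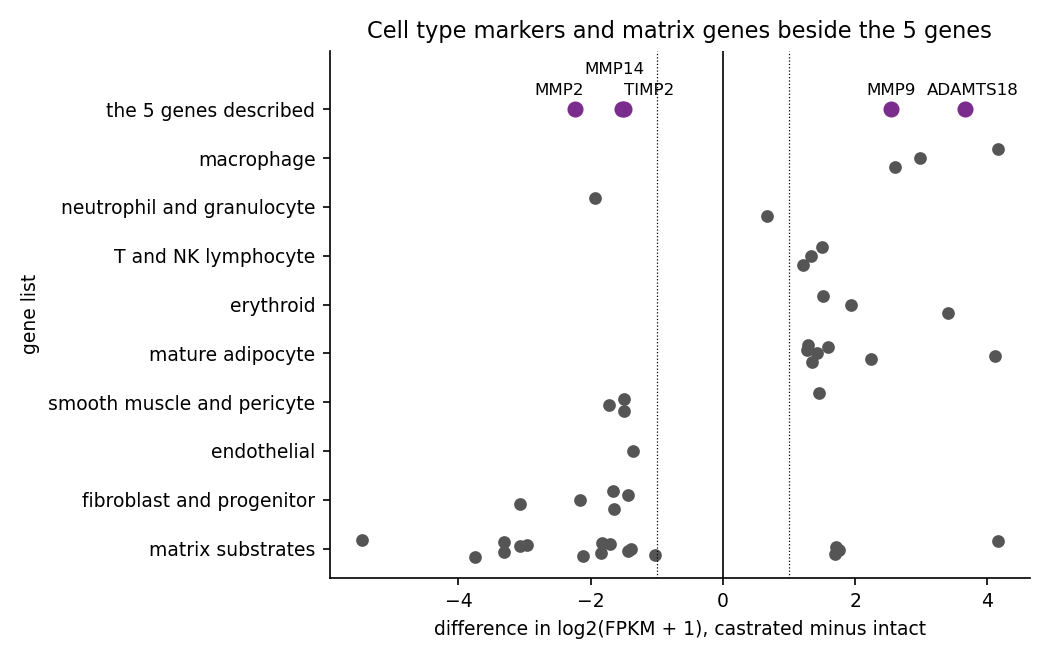
Difference in log2(FPKM + 1), castrated minus intact, for the 5 genes (purple, top row) and for each listed member of 8 cell type marker lists and of the matrix substrate list (grey); dotted lines mark a 2-fold difference. MMP2, MMP14 and TIMP2 fall on the side of the fibroblast and progenitor markers, the endothelial marker, and most smooth muscle markers and matrix substrates. MMP9 and ADAMTS18 fall on the side of the macrophage, lymphocyte, erythroid and adipocyte markers.

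Because the table leaves out transcripts that were not called, its overall balance is no measure of a difference in scale. Centring on the median of the 1231 genes with at least 1 FPKM in both groups is a shift of 0.49 on the log2 scale. After it 19.6% of listed genes passed upwards and 43.4% downwards, against 40.8% and 39.2% before. Relative to that shift the differences were -2.72 for MMP2, -2.01 for MMP14, -1.99 for TIMP2, 2.05 for MMP9 and 3.17 for ADAMTS18, and all 5 still passed the rule. MMP15, at 0.74, and MMP19, at 0.53, did not.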

How the data were processed

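Backfat RNA of 1 intact and 1 castrated sample, each standing for 3 pigs, was prepared with rRNA removal and a strand-specific kit, per the labels' protocols. TopHat2, Cufflinks and the build Sscrofa10.2 appear, without role or version, in the submitters' processing notes. Whether RNA was pooled or values were averaged over the 3 pigs is not stated there or in the labels. The authors deposited FPKM per transcript, per the file headers. The log2 fold change, p-value and q-value per transcript are also the authors' own, per the file headers; the largest q-value was 0.0499. FPKM times length showed no whole-read steps, so depth is unknown and no interval or test was computed.

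Transcripts were summed per gene with Python 3.11.15 and pandas 2.3.3, under RefSeq symbols matched by gene ID (1946 of 2266 IDs, 85.9%; the Sscrofa11.1 gene table, for names and gene order only). For symbols spread over several gene IDs (67 transcripts), such as ADAMTS12, COL15A1 and PDGFRA, the sum runs over all IDs. Whether these IDs are pieces of 1 gene was not examined, and if so the summed level is too high. The pseudocount was 1 FPKM. The 6 functional and 10 marker lists, like the 5 genes, were chosen with earlier results of these data known, and the size rule was first run on simulated FPKM values with known fold changes.

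All listed members of short lists and the 3 largest rises and falls of longer ones are named, for marker lists the most abundant ones, and for each gene the 2 nearest genes, of which 1 is not reported here. RECK, PLAU, PLAT, COL1A2 and the genomic neighbours were named after their values were seen. Alternatives were pseudocounts of 0.1 and 5 FPKM, no filter, median centring, the highest transcript per gene, a 4-fold rule and, added after seeing the data, symbols as deposited and the 4-fold rule for the 5 genes. The lncRNA and circRNA tables were not used.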

Additional observations from a re-analysis of the deposited data

How the results depend on the processing

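Neither a pseudocount of 0.1 FPKM, dropping the filter, using the highest transcript per gene nor keeping the deposited symbols changed the direction or the call of any of the 5 genes. Most of this was fixed in advance. A pseudocount cannot turn a direction, and with a pseudocount of 1 FPKM every 2-fold difference already meets the filter. MMP2, MMP9 and ADAMTS18 have 1 listed transcript each, and the symbols of all 5 genes are as deposited. Under the deposited symbols the one risen inhibitor (TIMP4) was not matched. With a pseudocount of 5 FPKM, MMP9 had a log2 difference of 0.99 and did not pass, while the other 4 genes did. Under that pseudocount 796 of the listed genes passed, 432 upwards and 364 downwards, against 1777, 906 and 871 with a pseudocount of 1, and 24 rather than 37 functional-list genes passed downwards. Median centring left 436 genes passing upwards. With a 4-fold rule 324 listed genes passed, 150 upwards and 174 downwards, and 15 rather than 45 functional-list genes, 1 upwards and 14 downwards. Under that rule, added for the 5 genes after seeing the data, 3 of them passed, and MMP14, at -1.52, and TIMP2, at -1.50, did not. Low genes such as MMP8, MMP15, MMP19, ADAMTS3, ADAMTS10 and PLAU did not pass with a pseudocount of 5 FPKM. No gene or list named above changed direction, but MMP9 rather than ADAMTS18 had the larger rise with a pseudocount of 0.1 FPKM. No paired analysis was possible because each group has 1 value, and for the same reason no sample could be left out. Unknown depth limits above all MMP9 and the minor TIMP2 transcripts, whose values lie near 0.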

Other observations

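In the RefSeq gene order (Sscrofa11.1, used for neighbourhood only) MMP27 and MMP8 lie next to each other, and MMP3 follows after MMP1, which had no listed transcript. All 3 listed genes of this cluster of MMP genes fell, to 8.86, 0.233 and 0.106 FPKM in castrated backfat from 57.0, 3.74 and 10.1 FPKM. TIMP4 lies beside PPARG, the nuclear receptor gene of adipocyte differentiation, and both rose, TIMP4 4.11-fold and PPARG 2.75-fold in FPKM. ADAMTS18 lies beside NUDT7, which encodes a peroxisomal hydrolase of coenzyme A and rose from 21.7 to 88.8 FPKM. None of the nearest 2 coding genes on either side of MMP2, MMP9, MMP14 or TIMP2 had a listed transcript.

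The deposited annotation places MMP14 and MMP9 in the KEGG TNF signalling pathway, in which 10 of 21 listed genes rose and 7 fell. MMP2 and MMP9 share the estrogen signalling pathway, in which 6 of 17 listed genes rose and 8 fell. MMP2 and MMP14 share the GnRH signalling pathway, in which 4 of 14 listed genes rose and 8 fell. These pathways were looked at after their values were seen, and their counts stand beside 40.8% of all listed genes that rose and 39.2% that fell.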
